A study of Mus musculus with 9 samples.

Results

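Clone 10 and clone 11 are clonal sublines of E14, a male mouse embryonic stem cell line, and this comparison sets the 1 RNA-seq library of clone 10 against the 1 library of clone 11. The pair was chosen by measured values of these same files: both clones had low levels of naive pluripotency genes, and chromosome 8 genes were higher in clone 10, so those features are given as a description and are not tested. Of 35580 genes in the files, 13457 had a mean of at least 1 CPM (counts per library scaled for depth) over the pair, and these were compared: 12241 on autosomes other than chromosome 8, 717 on chromosome 8, 469 on chromosome X, 11 on chromosome Y, 13 on the mitochondrial genome and 6 on unplaced scaffolds. All 9 clones of the series, these 2 included, were taken from bulk E14 cultures because their lipid droplets differed in size, and were then expanded on gelatin in medium with foetal bovine serum and leukaemia inhibitory factor (LIF), the cytokine that holds mouse stem cells in self-renewal. No genetic change or drug is named for any clone, and the labels tie no droplet size to a clone. Each clone is a single clonal line, so a difference below belongs to these 2 libraries and has no replicate check. The 95% interval printed beside a fold is exact for the counts alone and holds nothing of the spread between cultures.

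Mouse embryonic stem cells express a naive network of transcription factors, among them Esrrb, Klf4, Tfcp2l1 and Zfp42, which is switched off as cells move towards the formative and primed states of the epiblast. From the primed epiblast, Wnt and Nodal signals turn on primitive streak genes such as T (brachyury) and Mixl1 in the embryo. Gain of chromosome 8 and loss of chromosome Y are well known in cultured mouse embryonic stem cells, and no DNA was measured here.

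The libraries were similar in depth, with 13764275 estimated counts in clone 10 and 13802506 in clone 11, and 20183 and 20276 genes had a count. All 7 embryonic stem cell markers were present in both clones: Pou5f1, which encodes the core pluripotency factor Oct4, stood at 939 CPM in clone 10 against 852 CPM in clone 11. Markers of other lineages were summed by list. The 4 neural markers summed to 146 CPM in clone 10 against 110 CPM in clone 11, with clone 10 above and clone 11 below the 114 to 141 CPM of the other 7. Sox1 and Neurog2 were under 1 CPM in both, and Pax6 was at 10.1 and 6.57 CPM. Most of the neural sum thus came from Tubb3, a chromosome 8 gene with a log2 difference of 0.40, near the step of that chromosome given below. The summed level of 8 fibroblast markers was 59.8 CPM in clone 10 against 68.1 CPM in clone 11, above the 8.57 to 24.5 CPM of the other 7 clones, while Postn, Dcn and Lum were under 1 CPM in both. The summed level of 4 mesoderm markers was 11.5 CPM in clone 10 against 32.2 CPM in clone 11, against 1.29 to 4.19 CPM elsewhere, and most of it came from T. The 4 trophoblast markers summed to 5.58 and 8.18 CPM, with Elf5 and Tpbpa under 1 CPM in both clones, and the 5 primitive endoderm markers to 5.14 and 3.91 CPM. In bulk RNA, fewer expressing cells and less RNA per cell cannot be told apart.

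Outside chromosome 8 the clones were close to each other. A gene was called different when its level differed at least 2-fold, that is by 1 or more on the log2 scale of CPM with a prior count of 2. By this rule 91 of 12241 genes on the other autosomes (0.743%) were higher in clone 10 and 130 (1.06%) were higher in clone 11. With the genes filtered over all 9 clones instead, 225 of 12160 autosomal genes outside chromosome 8 differed 2-fold between clones 10 and 11. Ranked from the fewest such genes, the pair stood at 3 of 36 pairs of clones, level with clones 1 and 13, after clones 6 and 13 (172 genes) and clones 8 and 17 (185 genes). Between clone 10 or clone 11 and any of the other 7 clones, 765 to 1449 genes differed by as much. The typical gene differed little: the median of the absolute log2 difference was 0.156 for the pair. Of the called autosomal genes, 172 had a mean of 1 to 5 CPM, where 6.42% of genes were called, and 5 had a mean over 100 CPM, where 0.25% were.

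Many of the called genes are copies of others, and their values depend on how reads were divided. Of the 221 called autosomal genes, 79 (35.7%) had fewer than 50% of their 31-base words to themselves among the transcripts of the files, against 6.85% of autosomal genes with over 28 counts in the pair. The homeobox genes Cphx2 and Cphx3 show this. Cphx2 had 79 counts in clone 10 (5.72 CPM) but none in clone 11, and Cphx3 was at 0.58 CPM in clone 10 against 5.45 CPM in clone 11. Summed over Cphx1, Cphx2 and Cphx3, the level was 6.59 CPM in clone 10 against 5.66 CPM in clone 11 (fold 1.17, interval 0.854 to 1.59). The same held for Duxbl2 and Duxbl3, relatives of the zygotic activator Dux, whose family summed to 7.9 and 8.39 CPM (fold 0.942, interval 0.72 to 1.23). Tmem254b, 2.94-fold higher in clone 11 alone, was 1.21-fold higher (interval 1.01 to 1.45) once summed with its copies. The phosphodiesterase gene Pde2a, 3.08-fold higher in clone 11, was 1.72-fold higher (interval 1.4 to 2.11) once summed with a gene model that shares most of its words. By contrast, the epithelial genes of the Sprr2a group stayed 2.57-fold higher in clone 11 (interval 1.97 to 3.38) when the copies were summed.

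Chromosome 8 was higher in clone 10 along its whole length. The median difference of its 717 genes was 0.48 on the log2 scale, a fold of 1.39, and 667 of them (93.0%) were higher in clone 10. The medians of the other 18 autosomes lay between -0.04 and 0.03. In steps of 20 Mb along chromosome 8, the medians ran from 0.45 to 0.57, and the step of lowest share still had 74 of 83 genes higher in clone 10. The difference was near the same for genes of all levels, from a median of 0.37 at 1 to 5 CPM to 0.51 above 100 CPM, and all 135 genes above 100 CPM were higher in clone 10. Of its genes, 18 of 717 (2.51%) were 2-fold higher in clone 10 and 0 (0%) in clone 11. Set against clone 11 in the same way, the chromosome 8 median of clones 8, 14 and 17 was 0.50 to 0.56, that of clone 6 was 0.13, and those of clones 1, 4 and 13 lay within 0.01 of 0. Copy number of chromosome 8 was not tested.

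**Figure D1:**
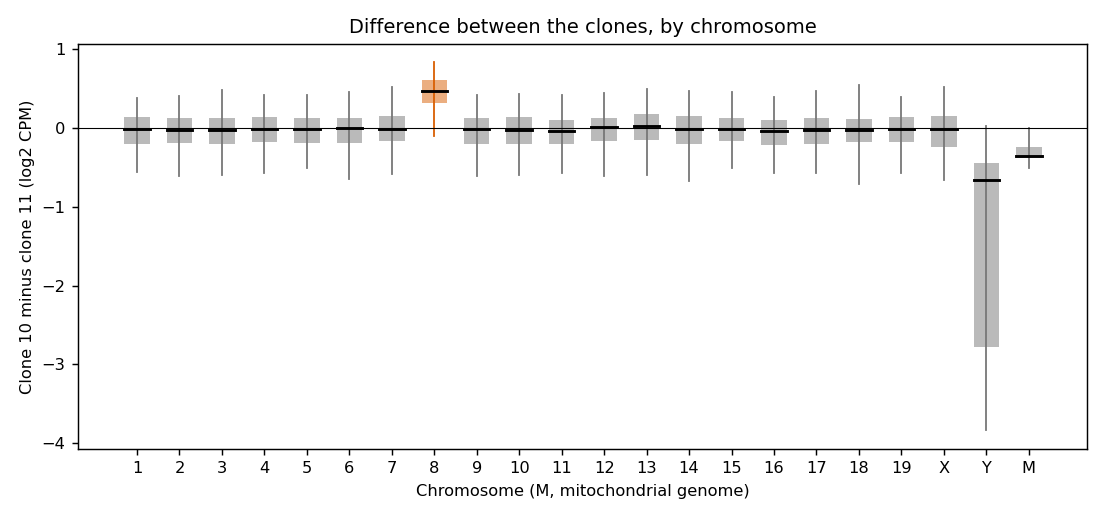
Difference between clone 10 and clone 11 (log2 CPM, vertical axis) for the genes of each chromosome (horizontal axis). Black lines are medians, boxes span the quartiles and thin lines the 5th to 95th percentiles. Chromosome 8 (orange) has a median of 0.48, while the other autosomes and X sit near 0 and chromosome Y and the mitochondrial genome lie below it.

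Some genes of chromosome 8 are also members of other groups, and whether the step sets their differences was not tested. Zfp42, which encodes the naive marker Rex1, was at 710 CPM in clone 10 against 489 CPM in clone 11 (fold 1.45, interval 1.41 to 1.5), and clone 11 lay below the 661 to 873 CPM of the other 7 clones while clone 10 lay among them. Klf2, another naive factor, was at 142 and 119 CPM. Among telomere genes, Terf2, a subunit of the shelterin complex that caps telomeres, was at 36.1 and 27.3 CPM. Acd was at 23.3 and 17.2 CPM, Terf2ip at 30.7 and 25.7 CPM, and the helicase gene Wrn at 28.2 and 18.7 CPM. Mcm5, a subunit of the replicative helicase, was at 680 and 407 CPM, Cox4i1 of respiratory complex IV at 506 and 338 CPM, and Acsl1, which activates fatty acids, at 44.8 and 27.1 CPM. All of these were higher in clone 10, as most genes of the chromosome were, and for Zfp42, Klf2, Mcm5, Cox4i1 and Acsl1 clone 11 lay below the other 7 clones.

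A few genes of chromosome 8 differed more than the step, or against it. Ankrd37, a target of the hypoxia-inducible factor, was at 7.39 CPM in clone 10 against 2.1 CPM in clone 11 (fold 3.52, interval 2.33 to 5.49), and the other 7 clones spanned 2.44 to 5.37 CPM. Pou4f2, a neuronal transcription factor gene, was at 7.39 and 2.45 CPM (fold 3.02, interval 2.04 to 4.57). Its level was 12.6, 8.6 and 12.6 CPM in clones 8, 14 and 17, and 2.44, 3.05, 3.07 and 2.34 CPM in clones 1, 4, 6 and 13. Angpt2, a vascular growth factor gene, was at 5.07 and 1.89 CPM (fold 2.69, interval 1.7 to 4.36). Zfp869, a zinc finger gene, was at 25 and 10.6 CPM (fold 2.37, interval 1.95 to 2.89). Its level was 23.1, 21.5 and 20.1 CPM in clones 8, 14 and 17, and 7.99, 10.3, 10.4 and 7.25 CPM in clones 1, 4, 6 and 13. Arrdc2, an arrestin domain gene, was at 6.88 and 2.66 CPM. On log2(TPM + 1), where TPM is kallisto's level per transcript length, the difference of Angpt2 was 0.73, under the 2-fold line. One of the gene models named Chtf8 was at 45.2 and 11.6 CPM, but only 1.98% of its 31-base words were its own, and summed with the other model the fold was 1.28 (interval 1.21 to 1.35). Among the genes that went the other way, Lonrf1 was at 14.3 CPM in clone 10 against 22.8 CPM in clone 11 (1.59-fold higher in clone 11, interval 1.33 to 1.9), above every other clone. Acta1, skeletal muscle actin, was at 4.56 and 6.92 CPM, and the other 7 clones did not exceed 1.3 CPM. Bst2, the interferon-induced tetherin, was at 19.4 and 22.5 CPM, a difference within counting error. Trim67 (5.07 and 6.43 CPM), Phlpp2 (6.3 and 7.69 CPM) and Mfhas1 (5.65 and 6.43 CPM), each also within counting error, completed the 6 genes of lowest difference among protein-coding genes with an assigned name and at least 5 CPM in the higher clone.

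The broadly expressed genes of chromosome Y were low in clone 10. Ddx3y, an RNA helicase gene, was at 6.01 CPM in clone 10 against 104 CPM in clone 11, 17.3-fold apart (interval 13.9 to 21.8), and the other 7 clones spanned 55.9 to 106 CPM. Uty, a histone demethylase relative, was at 3.04 and 41.5 CPM (13.6-fold, interval 9.97 to 19.13), Eif2s3y, a translation initiation factor gene, at 8.4 and 68.3 CPM (8.12-fold, interval 6.7 to 9.94), and Uba1y, a ubiquitin-activating enzyme gene, at 1.52 and 14.7 CPM (9.65-fold, interval 6.15 to 15.9). For each of these genes clone 11 lay within the range of the other 7 clones and clone 10 lay below it. Some signal was left in clone 10, with 83 counts for Ddx3y and 116 for Eif2s3y.

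Other Y-linked genes differed less. Kdm5d, a histone demethylase gene, was at 2.54 CPM in clone 10 against 2.8 CPM in clone 11 (1.1-fold, interval 0.683 to 1.79), both within the 1.76 to 3.78 CPM of the others. Zfy1, a zinc finger gene, had 2 counts in clone 10 and 16 in clone 11 (7.72-fold, interval 1.81 to 69.2). Gm47283, at 123 and 167 CPM, shares 46.8% of its words with a copy, and Gm21742, Gm21748, Gm21860, Gm21244, Gm21489, Gm2098 and Mid1-ps1 are copies or pseudogenes with at most 3.28% of their words their own, except Gm2098 with 6%. Among all 14 Y-linked genes with 1 CPM in any clone, clone 10 was below the other 7 in 7 and among them in 7. Clone 11 was within their range in all 14. The 14 include Mid1-ps1, which shares 89.6% of its words with the X-linked gene Mid1, and Gm21742, which shares 96.7% with Mid1-ps1. Their reads cannot be given to chromosome Y alone. The tally, and the Y median over the 14, are thus no measure of how much Y-linked RNA clone 10 kept. The X-linked partners of the low genes differed little between the clones: Ddx3x was at 1242 and 1205 CPM, Kdm6a at 82.4 and 83.7 CPM, Eif2s3x at 466 and 454 CPM and Uba1 at 625 and 585 CPM.

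The mitochondrial messenger RNAs were mostly lower in clone 10. The mitochondrial genome encodes 13 subunits of the respiratory chain, and 12 of them were higher in clone 11, with a median difference of -0.35 and counting intervals on one side of 1 for all 13. The range ran from mt-Atp6, at 462 CPM in clone 10 against 723 CPM in clone 11 (1.57-fold higher in clone 11, interval 1.52 to 1.62), to mt-Co3, at 1277 and 1412 CPM. mt-Co1, a core subunit of complex IV, went the other way with 3334 CPM in clone 10 against 2885 CPM in clone 11 (fold 1.16, interval 1.14 to 1.17). None of the 13 reached 2-fold. Clone 11 lay above the other 7 clones for 9 genes, and for 3 of these (mt-Nd4, mt-Nd4l and mt-Cytb) clone 10 did too.

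Near-identical copies in the nuclear genome touch part of these values. Fewer than 2% of the words of mt-Co2, mt-Atp6, mt-Co3, mt-Nd3 and mt-Nd4l were their own. Summed with the copies, mt-Atp6 stayed 1.39-fold higher in clone 11 (interval 1.35 to 1.42) and mt-Nd3 was 1.52-fold higher (interval 1.44 to 1.6), whereas mt-Co2 came to 1.1-fold and mt-Co3 to 1.02-fold (interval 1 to 1.04). mt-Co1 stayed 1.16-fold higher in clone 10. mt-Nd5, which has 83.2% of its words to itself, was at 298 and 398 CPM (1.34-fold, interval 1.28 to 1.39), and mt-Nd2 was at 175 and 228 CPM. The nuclear genes of the respiratory chain lay on the other side of 0: of 37 on autosomes other than chromosome 8, 31 were higher in clone 10, with a median of 0.09 and no call, and the interval lay above 1 for 18 and below 1 for 0. Over all 12241 genes of these autosomes, 47.4% were higher in clone 10, and the interval lay above 1 for 1795 and below 1 for 2307. Among the 37 nuclear genes, Sdhc of complex II was at 83.2 and 68.5 CPM, below the other 7 clones in both.

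**Figure D2:**
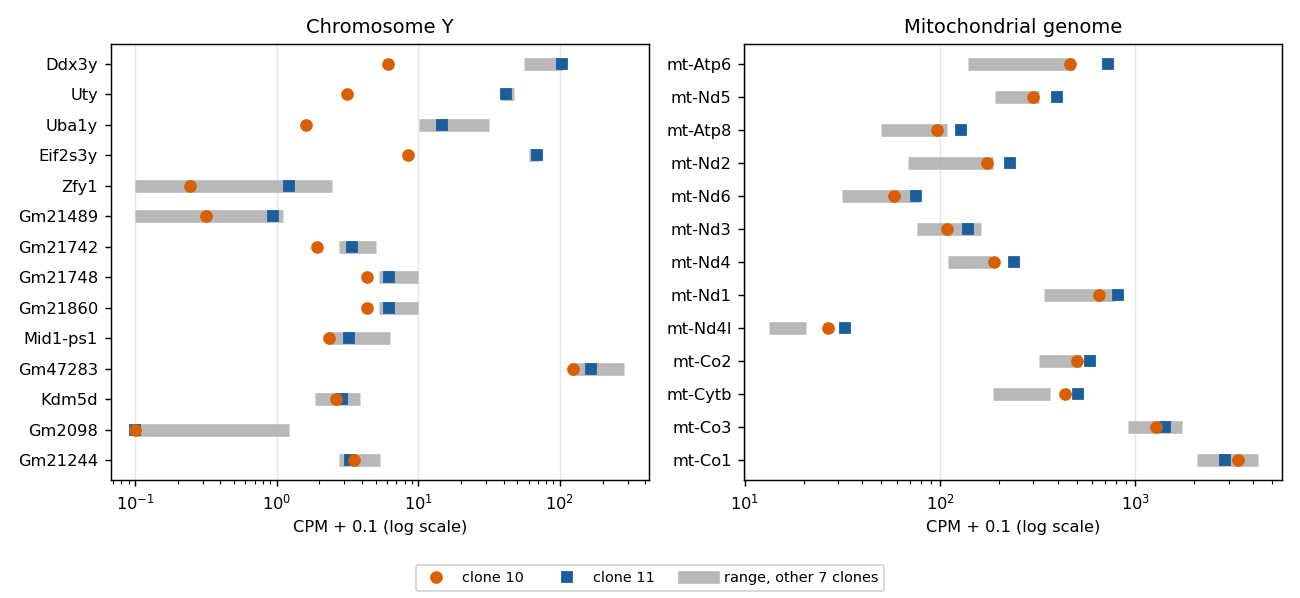
Levels (CPM + 0.1, log scale) of Y-linked genes (left) and mitochondrial genes (right) in clone 10 (orange circles), clone 11 (blue squares) and the range of the other 7 clones (grey bars). Ddx3y, Uty, Uba1y and Eif2s3y of clone 10 lie far left of the grey bars, while mitochondrial genes of clone 11 lie at or right of their upper end in 9 of 13 cases.

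On chromosome X the largest difference was Alg13, which encodes the catalytic partner of Alg14 in an early step of N-glycan assembly on dolichol. Alg13 (chrX:144317804-144374450 in GRCm38, plus strand) was at 353 CPM in clone 10 against 45.4 CPM in clone 11, or 7.79-fold (interval 7.17 to 8.46), and the other 7 clones spanned 301 to 342 CPM. The difference was not spread evenly over its transcripts. The annotation lists 10 transcripts that reach the downstream exons, and 4 short ones that lie wholly within the first part of the gene, chrX:144317804-144325197. The downstream transcripts summed to 236 TPM in clone 10 and to 31 TPM in clone 11, against 188 to 225 TPM in the other 7 clones. Their estimated counts were 4736.3 and 508.0 (fold 9.66, interval 8.82 to 10.6). The 4 short transcripts summed to 15.3 TPM in clone 10 and 21.8 TPM in clone 11, both inside the 11.6 to 23.7 TPM of the others, and their estimated counts of 138.7 and 141.0 did not differ beyond counting error (fold 1.02, interval 0.803 to 1.3). Of the 2158 words of the short transcripts, 80.4% are not in the downstream ones, so most of their sequence is told apart by the reads.

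Within the downstream set, Alg13-210 had 59.8 TPM in clone 10 but 7.12 TPM in clone 11, Alg13-201 had 107 and 12.8 TPM, and Alg13-212 had 40.7 and 0.2 TPM. Some transcripts of low level lay the other way, with Alg13-213 at 0.869 and 1.88 TPM and Alg13-211 at 1.77 and 2.92 TPM. Of 24 genes of N-glycan assembly on autosomes other than chromosome 8, 0 were called, beside a median of 0.045. Dpm1, a subunit of dolichol-phosphate mannose synthase, had the largest difference among them, at 11.4 CPM in clone 10 against 6.29 CPM in clone 11, and clone 11 lay below the other 7.

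**Figure D3:**
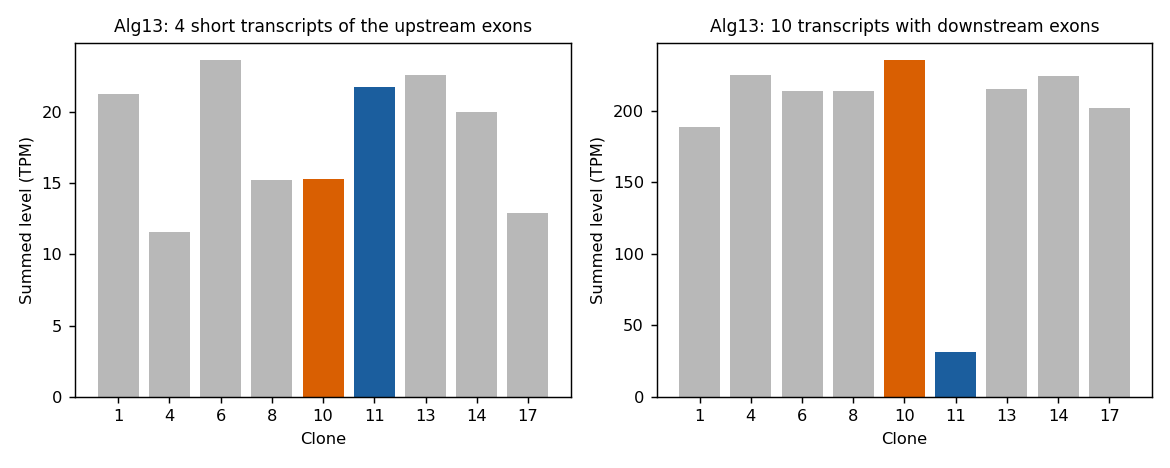
Summed levels (TPM, vertical axes from 0) of the 4 short upstream transcripts of Alg13 (left) and of its 10 transcripts with downstream exons (right) in each of the 9 clones, clone 10 in orange and clone 11 in blue. Clone 11 is at 31 TPM on the right, where the other clones exceed 188 TPM, and at 21.8 TPM on the left, among the others.

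Chromosome X as a whole had no step. Its 469 genes had a median difference of -0.02, with 5 (1.07%) called higher in clone 10 and 10 (2.13%) higher in clone 11. Nup62cl was at 19.05 CPM in clone 10 against 42.8 CPM in clone 11 (2.25-fold higher in clone 11, interval 1.94 to 2.6), and Stard8 at 15 and 33.5 CPM (2.24-fold, interval 1.9 to 2.65). In both genes it was clone 10 that lay below the other 7. The neuronal genes Pcsk1n and Syn1 were 2.14-fold and 2.15-fold higher in clone 11, and under 2-fold on log2(TPM + 1), with differences of 0.93 and 0.75. Xlr3a was at 7.9 and 2.45 CPM, and summed with its copy Xlr3b it was 1.65-fold higher in clone 10 (interval 1.25 to 2.19). Ripply1 was at 5.65 and 2.8 CPM, and Cfp, encoding properdin, at 11.2 and 6.5 CPM. The ubiquitin ligase Rlim, an activator of Xist, was at 437 and 567 CPM, above the 229 to 322 CPM of the other 7 in both.

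Several autosomal genes higher in clone 11 belong to the primitive streak or to smooth muscle. T, the T-box factor of the primitive streak (chr17:8434423-8442496, plus strand), was at 9.2 CPM in clone 10 against 28.2 CPM in clone 11 (3.07-fold, interval 2.51 to 3.78). The other 7 clones did not exceed 2.36 CPM, so that both clones lay above them and clone 11 furthest. Acta2, smooth muscle actin, was at 4.35 and 13 CPM (2.99-fold, interval 2.22 to 4.07), against at most 1.45 CPM elsewhere. The protocadherin gene Pcdh7 was at 1.59 and 5.45 CPM (3.42-fold, interval 2.11 to 5.77), against at most 0.915 CPM. For these genes, and for Sprr2a2, the order was the same: the other 7 lowest, clone 10 next, clone 11 highest.

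The proximal promoter of T is shown because T had the highest TPM of the 3 primitive streak genes called, and those of Gbp2b and Gbp2 because both genes lay far above the other 7 clones in both clones of the pair. They are from RefSeq on GRCm38 and end before the first annotated exon. In T, capitals mark a match to the TCF motif TCAAAG, searched on both strands after the values were seen. The motif stands in 13.8% of 32851 promoters of 250 bases and in 20 of 119 promoters (16.8%) of the 89 matched genes 2-fold higher in clone 11, and in 3 of 39 (7.69%) of the 29 matched genes 2-fold higher in clone 10. In Gbp2b, capitals mark the reverse strand of the core of the interferon-stimulated response element (GAAA, any 2 bases, GAAA, searched on both strands), present in 2.98% of all promoters and in 14 of 34 (41.2%) of the interferon list. It was in 2 of 119 promoters (1.68%) of genes 2-fold higher in clone 11 and in 0 of 39 of those higher in clone 10. These shares are of full windows of 250 bases. The 189 bases shown for Gbp2 hold no match, but the rest of its window, from the first annotated exon on, is not shown.
T, chr17:8434173-8434422, plus strand: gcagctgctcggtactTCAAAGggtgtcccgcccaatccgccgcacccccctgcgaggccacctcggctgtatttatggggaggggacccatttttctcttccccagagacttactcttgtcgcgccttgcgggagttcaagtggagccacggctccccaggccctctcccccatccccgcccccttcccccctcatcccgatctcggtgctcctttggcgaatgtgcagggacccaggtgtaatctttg
Gbp2b, chr3:142594597-142594846, plus strand: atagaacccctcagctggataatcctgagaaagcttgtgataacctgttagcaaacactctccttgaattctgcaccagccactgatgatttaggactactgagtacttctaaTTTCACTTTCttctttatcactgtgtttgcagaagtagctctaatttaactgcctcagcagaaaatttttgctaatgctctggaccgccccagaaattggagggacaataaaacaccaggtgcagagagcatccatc
Gbp2, chr3:142620413-142620601, plus strand: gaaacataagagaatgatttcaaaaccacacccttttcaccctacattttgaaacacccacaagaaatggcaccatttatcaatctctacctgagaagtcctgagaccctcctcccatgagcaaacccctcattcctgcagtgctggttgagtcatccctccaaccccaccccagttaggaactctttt
A match describes letters in these windows and shows no binding.

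Other genes set clone 11 apart from all 8 other clones. Igf2, the imprinted fetal growth factor, was at 2.97 CPM in clone 10 against 9.43 CPM in clone 11 (3.18-fold, interval 2.23 to 4.62), and the others spanned 2.44 to 5.95 CPM. A read-through model shares 61.9% of its words, and the sum of both was 2.99-fold higher. Aox3, an aldehyde oxidase gene, was at 1.09 and 5.24 CPM (4.82-fold, interval 2.75 to 9.04), with the others at 0.857 to 2.34 CPM. Parm1 was at 2.46 and 7.27 CPM (2.95-fold, interval 1.99 to 4.48). Rel, which encodes the NF-kappaB subunit c-Rel, was at 2.03 and 5.59 CPM (2.76-fold, interval 1.77 to 4.4), but here clone 11 lay within the 2.01 to 6.72 CPM of the others and clone 10 near their lower end. On log2(TPM + 1) all 4 of these genes were still higher in clone 11 but under the 2-fold line, with differences of 0.62 for Rel, 0.88 for Aox3, 0.91 for Parm1 and 0.998 for Igf2.

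Genes 2-fold higher in clone 10 had varied roles. Wnt6, a secreted Wnt ligand, was at 6.09 CPM in clone 10 against 2.24 CPM in clone 11 (fold 2.72, interval 1.79 to 4.23), and Pak6, a kinase gene, at 5.94 and 2.24 CPM (fold 2.66, interval 1.75 to 4.13). Pla2g4a, the phospholipase that releases arachidonic acid, was at 11.7 and 4.89 CPM (fold 2.4, interval 1.8 to 3.22). In these 3 genes clone 10 lay above the other 7 clones and clone 11 among them. Tex14, needed for intercellular bridges of germ cells, was at 14.5 and 6.36 CPM (fold 2.28, interval 1.77 to 2.95), and Robo4, an endothelial guidance receptor, at 8.77 and 3.98 CPM (fold 2.2, interval 1.59 to 3.07). In these it was clone 11 that lay below the others. Pmaip1, the p53 target Noxa, was at 15.4 and 6.92 CPM (fold 2.23, interval 1.75 to 2.86), with clone 10 above and clone 11 below the 8.54 to 14.3 CPM of the rest. Col5a2, a fibrillar collagen gene, was at 14.1 and 6.29 CPM (fold 2.23, interval 1.73 to 2.9), and both lay above the others, which stayed at or under 3.22 CPM. Fyb, the gene of an adaptor of blood cells, was at 6.01 and 2.73 CPM, and the testis histone gene Hist1h2aa at 5.72 and 1.96 CPM. Most counts of Fyb, 78.1 of 83 and 36.4 of 39, were given to Fyb-206. This transcript of 569 bases is annotated as a processed transcript and not as protein-coding. On log2(TPM + 1) the differences of Pak6 and Col5a2 were 0.23 and 0.40, and those of Tex14 (0.86), Wnt6 (0.92), Pmaip1 (0.92), Fyb (0.97) and Robo4 (0.99) also lay under the 2-fold line.

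Lars2, the mitochondrial leucyl-tRNA synthetase gene, had 18741 CPM in clone 10 against 7171 CPM in clone 11, but its level varied from 2906 to 71887 CPM over the other clones. Nearly all of its counts, 258217.0 and 101775.0, were given to the transcript Lars2-209, while the full-length coding transcript Lars2-201 had 461.0 and 813.5. It held 1.89% of all counts in clone 10 and 0.749% in clone 11.

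**Figure D4:**
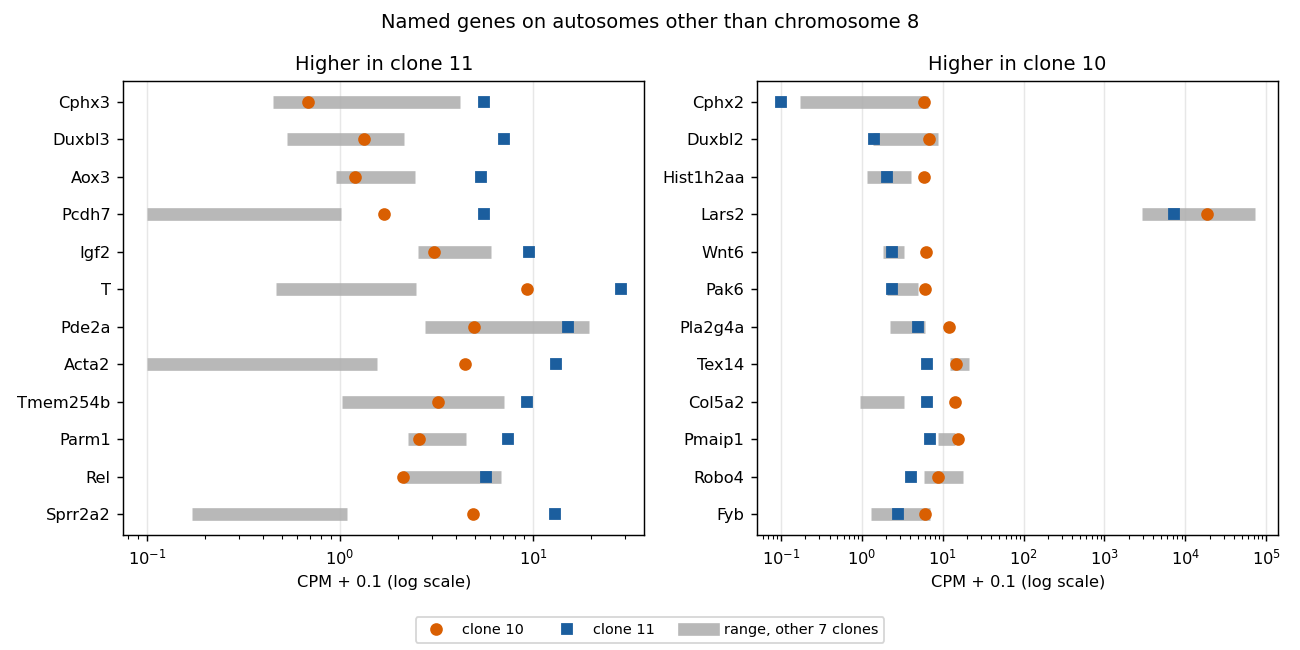
Levels (CPM + 0.1, log scale) of the 12 named genes per direction on autosomes other than chromosome 8, in clone 10 (orange circles), clone 11 (blue squares) and the range of the other 7 clones (grey bars). T, Acta2, Pcdh7 and Sprr2a2 lie right of the grey bars in both clones and furthest right in clone 11, whereas Cphx2 and Cphx3, which share reads, mirror each other.

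Genes where the pair departs from the other clones can be read by which clone departs further. On the other autosomes, both clones lay above the other 7 for 1414 genes, and 941 of these (66.5%) were higher in clone 11. Both lay below the other 7 for 1036 genes, and 631 of these (60.9%) were higher in clone 10. Over all 12241 genes, 52.6% were higher in clone 11. Among the 130 genes 2-fold higher in clone 11, clone 11 lay above the other 7 with clone 10 among them in 51 (39.2%, against 8.58% of all 12241 genes). Clone 10 lay below them with clone 11 among them in 19 (14.6%, against 4.89%). Both lay above them in 18 (13.8%), near the 11.6% of all genes. Among the 91 genes 2-fold higher in clone 10, clone 11 lay below the others with clone 10 among them in 31 (34.1%, against 8.23% of all genes). Clone 10 lay above with clone 11 among them in 25 (27.5%, against 4.14%). The 130 and 91 genes were picked by their difference between clones 10 and 11. Shares above those of all genes are therefore built in by that choice and lend no support. These places share the other 7 clones and are a description.

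Gene lists were read over members on autosomes other than chromosome 8, beside the 0.743% and 1.06% of all such genes called in each direction and their median of -0.015. Of all 12241 such genes, the counting interval lay above 1 for 1795 and below 1 for 2307, and the list counts below stand beside these. Of 10 primitive streak and mesoderm genes, 9 were higher in clone 11, 3 of them 2-fold (T, Mixl1 and Fgf8), and the median was -0.77. Mixl1, a homeobox gene of the streak, was at 0.797 CPM in clone 10 against 3.08 CPM in clone 11 (3.86-fold, interval 1.96 to 8.29), and the ligand gene Fgf8 at 0.58 and 2.03 CPM (3.5-fold, interval 1.56 to 8.85). Both were under 1 CPM in clone 10 and passed the filter only through their level in clone 11. Their calls, and their part in the 9 genes and in the median, therefore lend no support of their own. The caudal factor gene Cdx2 was at 3.12 and 5.66 CPM, Wnt3 at 11.2 and 14.1 CPM and Eomes, a T-box gene, at 6.74 and 7.9 CPM. Evx1 was the member on the other side, at 1.81 and 1.61 CPM. Tbx6, a later mesoderm gene, had 19 counts in clone 10 and 5 in clone 11 and did not reach the 1 CPM filter, and Mesp1 had 1 and 7. The summed mesoderm markers, which share T, Mixl1, Mesp1 and Tbx6 with this list, were higher in clone 11 as well, and the part of other cell types in the list was not tested.

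Wnt pathway genes leaned the same way. Of 19, 16 were higher in clone 11 with a median of -0.30, 0 were 2-fold higher in clone 11 and 1, Wnt6, was 2-fold higher in clone 10. The counting interval lay below 1 for 8 and above 1 for 1. Wnt7b, a Wnt ligand gene outside this list, was past 2-fold higher in clone 11 and is given under the other observations. Among the target genes, Sp5 was at 8.91 CPM in clone 10 against 15.4 CPM in clone 11 (1.73-fold, interval 1.38 to 2.17), and Axin2, a feedback inhibitor, at 22.2 and 33.5 CPM (1.51-fold, interval 1.3 to 1.75). Among the transcription factors, Tcf7l2 was at 2.75 and 5.31 CPM, Tcf7 at 34.8 and 50.1 CPM, Tcf7l1 at 11.3 and 15.6 CPM and Lef1 at 8.33 and 9.99 CPM. The effector Ctnnb1, beta-catenin, was at 746 and 763 CPM. Of the Nodal and BMP list, 0 of 19 were called and the median was -0.08, with Fst, an activin antagonist, at 6.52 and 11.4 CPM and Id1, a BMP target, at 94.1 and 56.5 CPM as its extremes.

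Interferon response genes were divided. Of 25 members, 15 were higher in clone 11 and 10 in clone 10, 0 were called, and the median was -0.12. The guanylate-binding genes, which encode GTPases against intracellular pathogens, were higher in clone 11: Gbp2 at 34.9 and 51.2 CPM (1.47-fold, interval 1.31 to 1.65), Gbp2b at 30.6 and 53.8 CPM (1.76-fold, interval 1.56 to 1.99), Gbp3 at 10.6 and 17.3 CPM and Gbp7 at 3.41 and 6.22 CPM. In both clones they lay above the other 7, where Gbp2 did not exceed 8.69 CPM. Irf9, a transcription factor gene of the response, was higher in clone 10, at 12.2 and 9.43 CPM (fold 1.3, interval 1.03 to 1.64), and the effector gene Isg15 was at 1.81 and 1.33 CPM, a difference within counting error.

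Actin and smooth muscle genes were mostly higher in clone 11. Of 20, 17 were higher there, 1 of them (Acta2) 2-fold, the median was -0.28, and the counting interval lay below 1 for 16 and above 1 for 1. Vim, which encodes vimentin, was at 173 CPM in clone 10 against 312 CPM in clone 11 (1.81-fold, interval 1.72 to 1.9), the calponin gene Cnn1 at 5.65 and 9.78 CPM, the focal adhesion gene Zyx at 28.8 and 46.5 CPM and Tagln, transgelin, at 36.8 and 54.4 CPM (1.48-fold, interval 1.32 to 1.66). Srf, whose product drives many of these genes, was at 48.7 and 54.3 CPM, and Actb at 3832 and 3880 CPM. Lmna, encoding lamin A, was the exception past counting error, at 66.5 and 44.8 CPM. Both clones lay above the other 7 for 13 of the 20 genes, beside 11.6% of all genes on these autosomes. Of 21 collagen and laminin genes, 17 were higher in clone 11, with fibronectin (Fn1) at 562 and 861 CPM and perlecan (Hspg2) at 317 and 501 CPM, while Col5a2 was called in the other direction.

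Pluripotency genes, the ones the pair was chosen on, differed little between the clones. Of 11 naive genes on autosomes other than chromosome 8, 0 were called, 8 were higher in clone 10, and the median was 0.06. Esrrb was at 382 CPM in clone 10 against 369 CPM in clone 11 (fold 1.04, interval 0.998 to 1.08), and Tfcp2l1 at 346 and 385 CPM, both below the other 7 clones. Tbx3 and Klf4 differed most and were higher in clone 11: Tbx3 was at 25.9 and 40.5 CPM (1.56-fold, interval 1.37 to 1.79) and Klf4 at 58.1 and 82.7 CPM (1.42-fold, interval 1.3 to 1.56). For Klf4, clone 11 lay within the 77.5 to 104 CPM of the others and clone 10 below it. Nanog was at 265 and 249 CPM and Sox2 at 250 and 236 CPM. Of 12 general pluripotency genes 0 were called, and their median was -0.02.

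Formative and primed genes also showed 0 calls of 17, with a median of -0.06. Dnmt3b, a de novo DNA methyltransferase gene, was at 373 and 461 CPM, the adhesion gene Cdh2 at 27.2 and 42.3 CPM, Fgf5 at 1.74 and 2.1 CPM and Otx2, a formative transcription factor gene, at 29.6 and 22.7 CPM. Both clones lay above the other 7 for 9 of the 17, beside 11.6% of all genes on autosomes other than chromosome 8. The LIF and STAT3 list had 12 of 14 members higher in clone 11, 0 called and a median of -0.17, with the receptor-linked kinase gene Jak2 at 9.27 and 14.3 CPM. Stat3 itself was at 137 and 138 CPM.

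**Figure D5:**
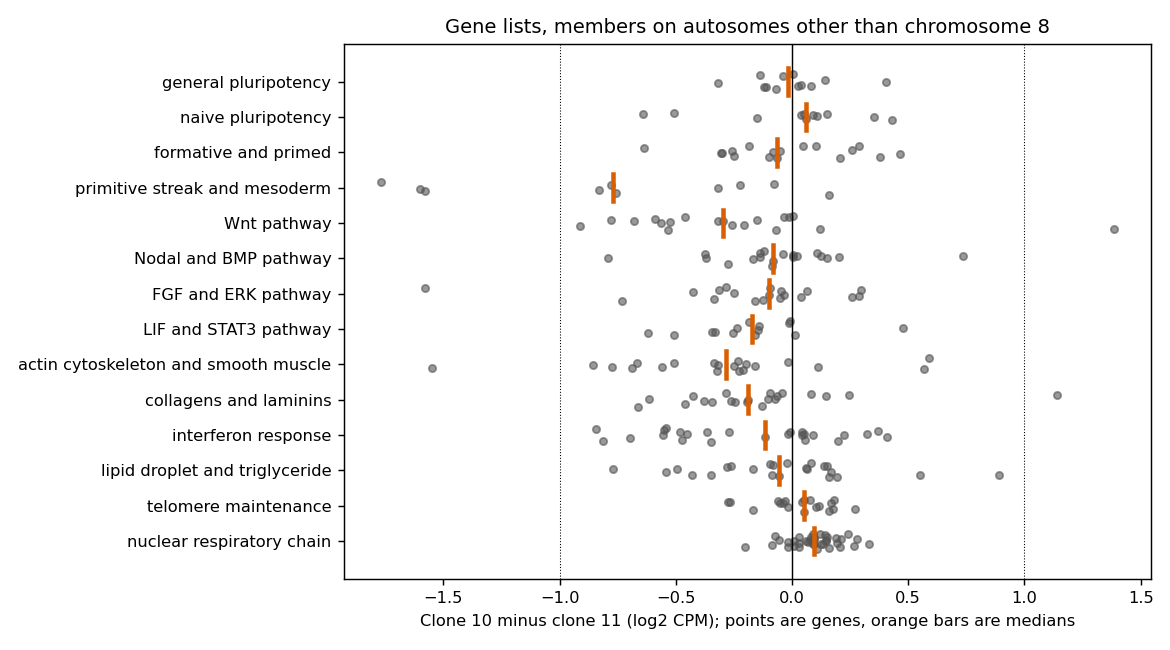
Difference between clone 10 and clone 11 (log2 CPM, horizontal axis) for the members of 14 gene lists on autosomes other than chromosome 8. Points are genes, orange bars list medians and dotted lines the 2-fold limits. Primitive streak genes have the lowest median, -0.77, while the naive, telomere and lipid droplet lists sit near 0.

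Lipid droplet and telomere genes, which the series is about, had no call. Of 23 lipid droplet and triglyceride genes, 0 were called and the median was -0.06. Plin2, the droplet coat protein perilipin 2, was at 42.2 CPM in clone 10 against 44.7 CPM in clone 11 (1.06-fold higher in clone 11, interval 0.945 to 1.19), and both lay above the 17.3 to 25.3 CPM of the other 7. Gpat3, which acts early in triglyceride synthesis, was at 6.66 and 11.5 CPM, and Mogat2, a monoacylglycerol acyltransferase gene, at 2.46 and 1.26 CPM. Lists of fatty acid synthesis (16 genes), cholesterol synthesis and uptake (23), fatty acid oxidation (23), the unfolded protein response (20) and the cell cycle (26) each had 0 calls. Of 19 telomere genes 0 were called, with a median of 0.05. Tert, the telomerase reverse transcriptase, was at 18.3 and 16.2 CPM (fold 1.13, interval 0.942 to 1.36), and Terf1, a shelterin subunit, at 94.3 and 114 CPM. The keratin gene Krt8 was at 278 CPM in both clones, far above the 18.2 to 56.1 CPM of the others, and Csf1, a macrophage growth factor gene, was at 9.78 and 14.8 CPM.

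Single members of other lists were called. Zscan4c, a gene of the two-cell-like state, was at 2.1 CPM in clone 10 against 4.82 CPM in clone 11, and the Zscan4 genes and pseudogenes that share its words summed to 15.7 and 25.4 CPM (1.62-fold, interval 1.37 to 1.93). The integrin gene Itga1 was at 6.38 and 13.1 CPM (2.06-fold, interval 1.59 to 2.69), within the range of the other clones in both, and Fosb, an immediate early gene, at 1.52 and 3.49 CPM (2.3-fold, interval 1.35 to 4.03). On log2(TPM + 1) the 3 differences were 0.86, 0.88 and 0.63, under the 2-fold line. The lists of FGF and ERK signalling (1 of 19, Fgf8), imprinted genes (1 of 27, Igf2) and p53 targets (1 of 22, Pmaip1) had 1 call each, of genes already named.

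No gene was called among primitive endoderm genes (8 genes, median -0.09), trophoblast genes (8, median -0.27), early neural genes (7, median 0.10), fibroblast genes (8, median 0.05), germline genes (15, median -0.10), DNA methylation enzymes (16, median -0.07) and genes of the integrated stress response (19, median 0.01). Dab2 of the primitive endoderm list fell just short of the call with the prior count. It was at 3.84 CPM in clone 10 against 7.83 CPM in clone 11 (2.04-fold, interval 1.46 to 2.88), above the other 7 in both. Of the 8 trophoblast genes 7 were higher in clone 11. Glycolysis and hypoxia genes also had 0 calls among 28 outside chromosome 8, where Ankrd37 is.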

How the data were processed

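RNA-seq data of clones 10 and 11, whose libraries came from a kit for stranded mRNA per the labels' protocols, were compared, and the other 7 clones served for scale and context. The submitters' processing notes list kallisto 0.43.1, Trimmomatic 0.33, FastQC and CASAVA 1.8 beside the builds GRCm38 and mm10. The authors, per the file headers, deposited an estimated count and a TPM value for each of 115270 transcripts. Transcripts were matched to GENCODE M21 (113580 matched), and estimated counts were summed to genes and rounded. The unmatched transcripts held 0.670% and 0.696% of the counts of clones 10 and 11.

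CPM used TMM factors over 9 clones (edgeR 4.0.16, prior count 2). With 1 library per clone no test was run. Differences of 2-fold were called at a mean of 1 CPM or more, and fold intervals are exact conditional binomial (Clopper-Pearson, 95%), for counting error only and not for the division of reads between transcripts. 31-base words were counted over the transcripts of the files. Steps were checked on simulated data.

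The genes and 37 lists were chosen with earlier results of these data known. The rule named, with at least 5 CPM in the higher clone and an assigned name, 12 genes per direction on autosomes other than chromosome 8, 6 on chromosome 8 and 4 on X, all Y-linked and mitochondrial genes, up to 3 genes per list and 20 fixed genes. Other list members and families were chosen after their values were seen. Alternatives were other scalings, filters, prior counts, units, gene classes and fold limits. Python 3.11.15 and scipy 1.17.1 were used.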

Additional observations from a re-analysis of the deposited data

How the results depend on the processing

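No replicate could be left out, and no paired analysis was possible because each clone has 1 library. The counts of called genes depended on the filter and the limit. In the order other autosomes higher in clone 10, other autosomes higher in clone 11, chromosome 8 higher in clone 10 and chromosome 8 higher in clone 11, they were 647, 676, 59 and 20 with no filter and 347, 624, 208 and 6 at 1.5-fold. With intervals wholly past 1.5-fold, the first 3 were 52, 69 and 11, with a mean of 5 CPM 21, 28 and 4, and on log2(TPM + 1) 41, 74 and 11. Genes higher in clone 10 numbered 60 when restricted to protein-coding genes, and 50 without numbered gene models, an alternative added after seeing the data. For chromosome 8 higher in clone 11, median-ratio size factors, TMM on the pair alone, library totals and a prior count of 0.5 each gave 1 gene. With library totals alone, the medians of chromosome 8, X and the mitochondrial genome were 0.43, -0.064 and -0.40, and on log2(TPM + 1) 0.38, -0.084 and -0.43. The chromosome Y median, -0.66 over all 14 genes, was -3.075 without numbered gene models. On log2(TPM + 1) the nuclear respiratory list median was 0.00, where all autosomal genes outside chromosome 8 had -0.08, and the telomere list median was -0.05. No result with a call changed sign under the alternatives run. The summing of copies was not among them, and there Cphx3 (-2.94 alone, 0.22 summed) and Duxbl2 (2.21 alone, -0.09 summed) did change sign. Precision is limited by depth: 3 counts stood for 0.217 CPM in clone 10 and 0.21 CPM in clone 11.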

Other observations

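Histone genes, chosen after their values were seen, were higher in clone 10. Of 54 Hist1 genes on chromosome 13, 51 were higher in clone 10, with a median difference of 0.31 and a counting interval above 1 for 44 and below 1 for 1. Of the 12241 genes on autosomes other than chromosome 8, the interval lay above 1 for 1795 and below 1 for 2307. The replication-dependent Hist1 genes encode core and linker histones, and their messages mostly lack a poly(A) tail. Their summed level was 5706 CPM in clone 10 against 4476 CPM in clone 11, the lowest of the 9 clones, and it ranged from 5323 to 8626 CPM in the other 7. Of 13 Hist2, Hist3 and Hist4 genes, 9 were higher in clone 10, with a median of 0.29. Many histone genes are near-identical, so single members are uncertain. The segment of chromosome 13 that holds the cluster, at 20 to 30 Mb, had a median of 0.26 over 86 genes, the highest of the 10 Mb segments outside chromosome 8 with 10 or more genes. The Hist1 genes of the cluster, counted above, are among the 86, so this median is no separate observation. The lowest segment was chromosome 14 at 0 to 10 Mb, with -0.24 over 27 genes.

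Further genes outside the naming rule were 2-fold higher in clone 11. Wnt7b, a Wnt ligand, was at 15.6 CPM in clone 10 against 34.2 CPM in clone 11 (2.19-fold, interval 1.86 to 2.59). Cyp26a1, which degrades retinoic acid, was at 1.52 and 4.26 CPM (2.8-fold, interval 1.68 to 4.84), Kdr, a VEGF receptor, at 3.62 and 8.46 CPM (2.33-fold, interval 1.67 to 3.31), and Tnc, tenascin C, at 4.64 and 9.85 CPM (2.13-fold, interval 1.57 to 2.9). In the other direction, Krt17, a keratin gene, was at 59.5 CPM in clone 10 against 28.5 CPM in clone 11 (fold 2.09, interval 1.85 to 2.36), where clone 11 lay below the 38 to 97.2 CPM of the others.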
